A study of Mus musculus with 4 samples.

Results

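The genes described here are 41 genes of DNA replication and S phase, chosen by name: the licensing and helicase factors, cyclin E, the polymerases and primase, the clamp and its loader, the enzymes of nucleotide synthesis, and chromatin factors of the replication fork. Members were all probe sets that the platform annotation assigned to one of these genes alone, which gave 87 of the 34958 probe sets with a single gene, for 40 of the 41 genes. Chaf1a, the large subunit of chromatin assembly factor 1, had no such probe set and was not analysed here. Of the 87 probe sets, 74 passed a filter on low signal (the lowest 40% of all probe sets by mean level were left out), and every one of the 40 genes kept at least 1 tested probe set. The other 13 are accounted for but were not tested.

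Signals were read on 4 single-colour Affymetrix Mouse430_2 arrays of amplified RNA from whole mouse kidneys of E14.5 embryos (Theiler stage 22). The 2 wild-type arrays each held a pool of 2 kidneys with the strain given as CD-1, and the 2 mutant arrays each held a pool of 12 kidneys, homozygous null for Wnt4 (allele Wnt4tm1Amc), with the strain given as 129. The protocol text, shared by all arrays, speaks of CD-1 matings. Stated strain and pool size changed with genotype and cannot be told apart from it. The study asked which genes are expressed in the renal vesicle and the nephron parts that form from it, since kidneys without Wnt4, a secreted signal of the condensing mesenchyme, do not form them. Whether pools came from separate litters is not stated, and p-values measure only the spread between these pools, which may be technical. The number of arrays limits the precision.

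A cell copies its DNA once per division. Before S phase the origin recognition complex, Cdc6 and Cdt1 load the Mcm2 to Mcm7 ring onto origins; cyclin E and its kinase, with Cdc45, the GINS complex and Mcm10, then turn the ring into a moving helicase. DNA polymerase alpha and primase start each strand, the Rfc complex loads the Pcna clamp, and the polymerases delta and epsilon extend the strands while ribonucleotide reductase and its partner enzymes supply nucleotides. Many of these genes are textbook targets of the E2F transcription factors, and in the embryonic kidney nephron progenitors, ureteric tips and the first nephron epithelia are all cycling cells.

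The choice by name did not use sequence, and some members hold E2F words at their promoters. Promoters were taken from RefSeq (GRCm38.p6, 250 bases before to 50 after each start), which held 40 promoters for 34 of the 41 genes, and were searched on both strands for TTTCCCGC, TTTGGCGC, TTTCGCGC and TTTGCCGC, words of the E2F consensus, and for CCAAT, the box bound by the factor NF-Y. An E2F word stood in 13 of the 40 member promoters (32.5%), against 2.26% of all 32851 promoters. TTTCGCGC stood in 17.5% of them, TTTGGCGC in 15.0%, TTTCCCGC in 12.5% and TTTGCCGC in 0, against 0.323%, 0.514%, 1.07% and 0.441% of all promoters. CCAAT stood in 55.0% of member promoters and 37.4% of all. The genes with an E2F word were Cdc6, Cdt1, Lig1, Mcm3, Mcm5, Mcm6, Mcm7, Orc1, Pola1, Pold1, Pole2, Rfc3 and Uhrf1. Whether these shares differ from those of all promoters was not tested. A match describes the letters in the window and is not evidence of a bound site.

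The 200 bases before the start are shown for 5 of the 7 members with a probe set that was lower in the mutant, those with a match in the window, and for the helicase genes with an E2F word there, with E2F words and CCAAT boxes in capitals (ATTGG is CCAAT on the other strand, GCGGGAAA is TTTCCCGC on the other strand). Where RefSeq gave a pair of starts (Mcm7 and Uhrf1), the window with more matches is shown. In the Mcm5 and Mcm6 promoters the words TTTCGCGC and TTTGGCGC overlap on opposite strands, so their capitals form a single run.
Rrm2 (chr12:24708054-24708253, plus strand): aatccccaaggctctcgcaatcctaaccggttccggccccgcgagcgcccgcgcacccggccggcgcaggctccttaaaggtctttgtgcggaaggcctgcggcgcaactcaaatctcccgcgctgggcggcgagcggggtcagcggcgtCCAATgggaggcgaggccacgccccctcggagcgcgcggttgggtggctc
Pcna (chr2:132253181-132253380, minus strand): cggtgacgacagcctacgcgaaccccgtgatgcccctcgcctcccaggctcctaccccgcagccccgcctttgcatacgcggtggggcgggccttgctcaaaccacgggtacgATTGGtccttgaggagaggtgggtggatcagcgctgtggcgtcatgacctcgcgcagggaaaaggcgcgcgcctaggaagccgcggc
Mcm3 (chr1:20820313-20820512, minus strand): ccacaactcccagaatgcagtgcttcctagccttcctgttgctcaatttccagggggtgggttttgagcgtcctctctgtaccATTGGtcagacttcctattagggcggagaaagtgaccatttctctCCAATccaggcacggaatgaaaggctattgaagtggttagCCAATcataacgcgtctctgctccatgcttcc
Mcm5 (chr8:75109309-75109508, plus strand): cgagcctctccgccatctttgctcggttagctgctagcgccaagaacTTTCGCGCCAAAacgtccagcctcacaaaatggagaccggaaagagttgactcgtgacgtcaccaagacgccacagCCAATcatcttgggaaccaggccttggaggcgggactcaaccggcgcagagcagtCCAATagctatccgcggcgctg
Mcm6 (chr1:128359706-128359905, minus strand): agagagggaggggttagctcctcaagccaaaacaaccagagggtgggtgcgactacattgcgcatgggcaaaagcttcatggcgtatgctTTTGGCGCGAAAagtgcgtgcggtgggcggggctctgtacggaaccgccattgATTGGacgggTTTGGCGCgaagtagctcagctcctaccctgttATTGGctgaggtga
Mcm7 (chr5:138171884-138172083, minus strand): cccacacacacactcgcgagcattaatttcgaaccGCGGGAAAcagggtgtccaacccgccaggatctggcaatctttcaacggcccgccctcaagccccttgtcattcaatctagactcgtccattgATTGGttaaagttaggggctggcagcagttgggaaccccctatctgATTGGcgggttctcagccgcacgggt
Uhrf1 (chr17:56304113-56304312, plus strand): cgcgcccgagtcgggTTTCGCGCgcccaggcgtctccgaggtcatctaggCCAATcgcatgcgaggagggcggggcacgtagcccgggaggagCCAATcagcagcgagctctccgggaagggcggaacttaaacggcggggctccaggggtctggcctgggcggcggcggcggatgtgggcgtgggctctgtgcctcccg
Rrm2 and Pcna carry 1 CCAAT box each and no E2F word in this window, Mcm7 and Uhrf1 carry both, and the E2F words of Mcm3 lie after its start, outside the window shown. The 200 bases before the start of Tk1 and of Fen1 hold neither and are not shown.

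Replication genes stood slightly lower in kidneys without Wnt4, as a broad and small displacement with few single genes past the test. With each gene represented by its tested probe set of highest mean, the difference (mutant minus wild-type, on the log2(signal + 16) scale) was negative for 36 of the 40 genes (90.0%), against 6713 of all 13432 genes tested, and the median was -0.16, a 1.12-fold lower level. The signals of these 40 representative probe sets summed to 119809 and 120092 on the wild-type arrays and to 104573 and 104876 on the mutant arrays. Both mutant arrays lay below both wild-type arrays in 24 of the 40 genes, against 28.0% of all genes, both lay above in 2, against 29.1%, and the groups overlapped in 14. Differences ran from -0.48 (Rrm2) to 0.28 (Pold2). The test (limma, Benjamini-Hochberg over all 27022 probe sets, threshold 0.05) called 3 of the 40 genes lower, Rrm2, Tk1 and Pcna (7.50%, against 5.82% of all genes), so the share of called genes was near the background, and 0 of 40 higher, against 6.70%. Over all probe sets it called 10 of 74 lower (13.5%, against 5.39% of all probe sets), in 7 genes: Rrm2, Fen1, Uhrf1, Mcm3, Mcm7, Pcna and Tk1. It called 0 of 74 higher, against 5.41% of all probe sets. At an unadjusted p under 0.05, limma gave 26 of 74 lower, against 13.4% of all probe sets, and 0 higher, against 12.3%. Both mutant arrays lay below both wild-type arrays at 41 of the 74 probe sets (55.4%, against 28.0%) and above at 5, against 26.1%. In whole organs, fewer cycling cells and less RNA per cell cannot be told apart.

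The counts rest on the spread estimate and on single arrays. Of the 74 probe sets, 3 were lower without mutant replicate 1 (against 3.36% of all probe sets), a share near the background, and 5 without mutant replicate 2 (against 3.22%). Without wild-type replicate 1 the count was 17 (against 5.72%), and without wild-type replicate 2 it was 14 (against 7.04%). It was 0 when the spread was not modelled as a function of intensity (against 433 of all 27022 probe sets). With arrays centred on their medians 5 probe sets were lower (against 4.67%) and 0 genes by their representative probe set, 33 of 40 genes stayed negative, and both mutant arrays lay below in 18 (against 22.9% of all genes).

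**Figure D1:**
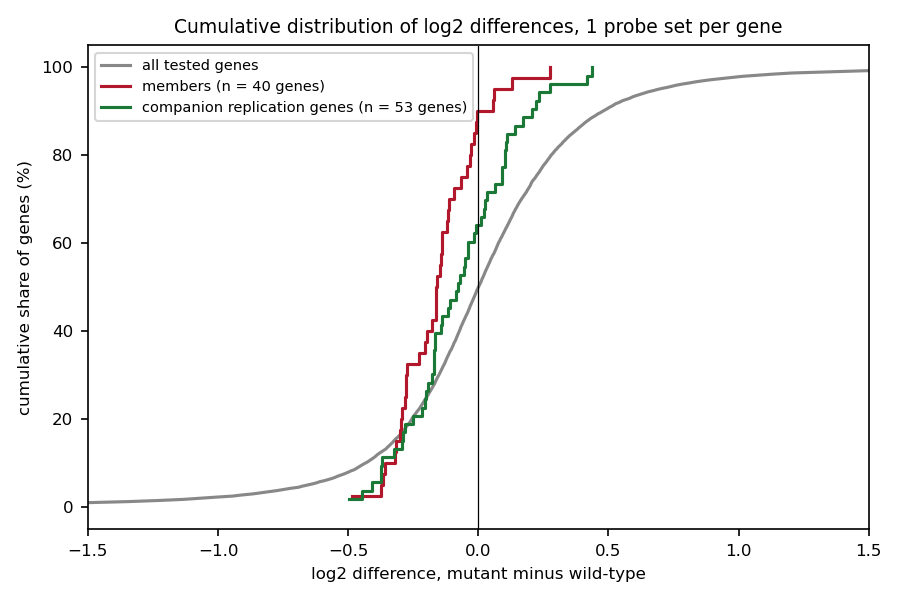
Cumulative share of genes (percent) against the log2 difference, mutant minus wild-type, with 1 probe set per gene, for the 40 replication genes (red), the 53 companion replication genes (green) and all 13432 tested genes (grey). The red line reaches 90.0% at a difference of 0, where the grey line holds 6713 of 13432 genes, and all its values lie between -0.48 and 0.28.

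Nucleotide synthesis held the lowest median of the 6 role groups and the lowest gene, Rrm2. By representative probe set Rrm1 and Tyms lay above the median of all members. All 5 genes were negative, with a median difference of -0.36. Both mutant arrays lay below both wild-type arrays at 8 of their 9 tested probe sets, against 28.0% of all probe sets. Rrm2, the S-phase subunit of ribonucleotide reductase, which makes deoxyribonucleotides, was measured at 3 probe sets. At its brightest probe set (1434437_x_at) the signal was 7413 and 7660 in wild-type and 5413 and 5349 in mutant kidneys. The groups did not overlap, and each differed within itself by far less than the gap between them. The level fell 1.40-fold (log2 difference -0.48 ± 0.08 SE, limma adjusted p = 0.00621). Both other probe sets also passed: 1448226_at read 4999 and 4846 against 3451 and 3399 (1.44-fold lower, adjusted p = 0.00530), and 1416120_at read 4733 and 4863 against 2995 and 3452 (1.49-fold lower, adjusted p = 0.00745). Without mutant replicate 2 the brightest probe set did not pass (adjusted p = 0.0537), and without mutant replicate 1 the probe set 1416120_at did not (0.0575). With arrays centred on their medians the brightest one also missed the threshold (0.0513), while 1448226_at passed in 13 of 14 alternatives, all but the fit without an intensity trend.

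Tk1, thymidine kinase of the salvage route, read 2725 and 2697 in wild-type and 2102 and 2120 in mutant kidneys. Its arrays were tight within each group and fell 1.28-fold between them (log2 difference -0.36 ± 0.08, adjusted p = 0.0328). The call was lost without mutant replicate 1 (0.191), without mutant replicate 2 (0.172), with arrays centred on their medians (0.239) and with no filter (0.0538). Dut, which removes dUTP and so keeps uracil out of DNA, read 3496 and 3964 against 3078 and 2701, a difference of -0.37 ± 0.10 that did not pass (adjusted p = 0.0592). Over its alternatives the adjusted p ran from 0.00874, without wild-type replicate 1, to 0.330. Rrm1, the large reductase subunit, read 5154 and 3820 against 4218 and 3835 at its brightest probe set, where the groups overlapped and wild-type replicate 1 stood apart (-0.14, 95% confidence interval -0.45 to 0.17). It passed there only without wild-type replicate 2 (adjusted p = 0.0269), and the adjusted p reached 0.875 in the other alternatives. At 1448127_at, its other tested probe set, Rrm1 read 4365 and 3984 against 3333 and 3699, without overlap (-0.25, limma adjusted p = 0.139). The single tested probe set for Tyms, thymidylate synthase, was dim, at 220 and 215 against 203 and 198 (-0.11, adjusted p = 0.800). A brighter probe set (1424991_s_at), assigned to both Tyms and its pseudogene and so not a member, read 3300 and 2881 against 2539 and 2268 (-0.36, adjusted p = 0.0643).

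**Figure D2:**
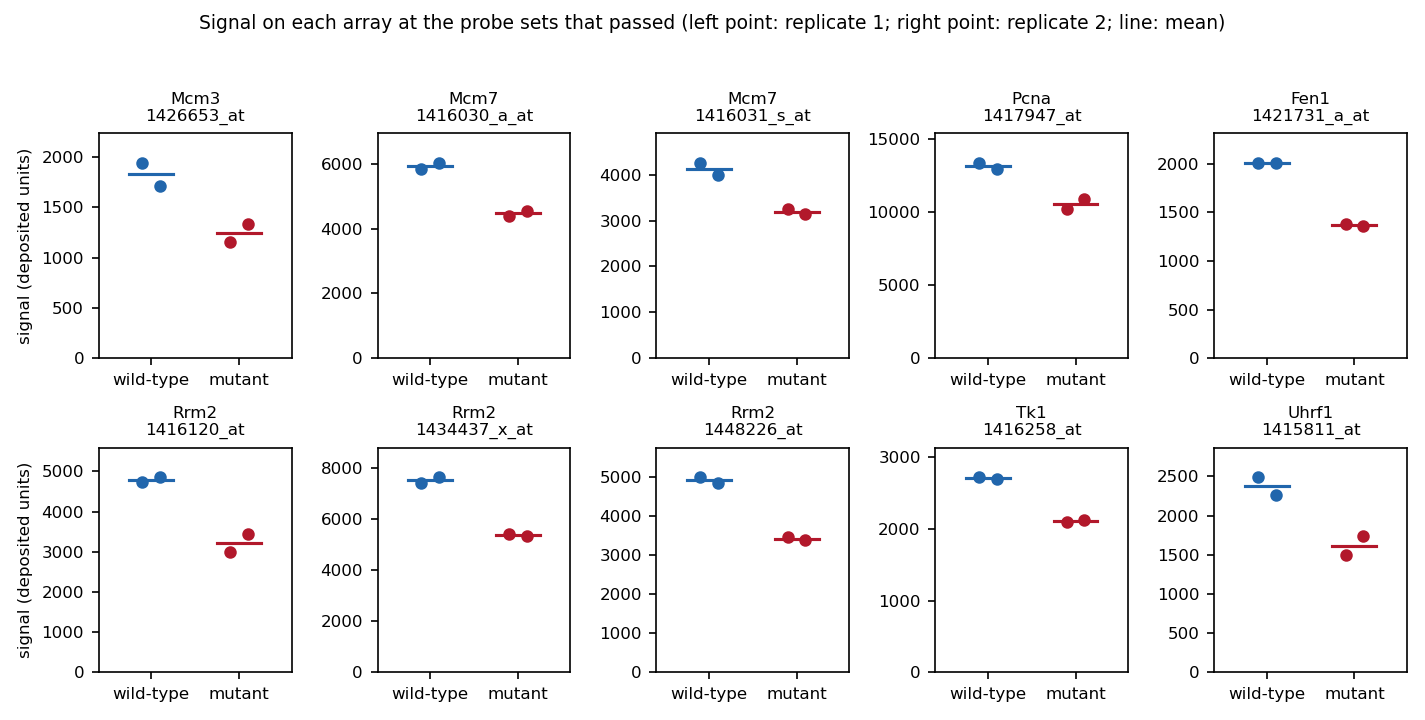
Signal on each array, in the deposited units with axes from 0, at the 10 member probe sets that passed the test, with wild-type arrays in blue, mutant arrays in red and a line at each group's mean. In every panel both red points lie below both blue points, with falls of 1.25-fold (Pcna) to 1.49-fold (Rrm2, 1416120_at).

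Licensing and helicase genes were the largest group, with 13 of 14 negative and a median of -0.17. Both mutant arrays lay below both wild-type arrays in 10 of the 14, against 28.0% of all genes. By representative probe set 0 were called lower, against 5.82% of all genes, though 3 of 32 probe sets were, against 5.39% of all probe sets. All 6 genes of the Mcm2 to Mcm7 ring were negative, from -0.28 (Mcm2) to -0.07 (Mcm4), and 9 of their 18 tested probe sets were lower at an unadjusted p under 0.05, against 13.4% of all probe sets. Mcm7 was measured at 4 probe sets. The brightest (1438320_s_at) read 12074 and 11874 in wild-type and 9746 and 10076 in mutant kidneys, without overlap (-0.27 ± 0.07, adjusted p = 0.0545). It missed the threshold and passed in 3 of 14 alternatives, over which the adjusted p ran from 0.0452 to 0.346. Quantile normalization reduced its difference to -0.13 (adjusted p = 0.212). At 1416030_a_at the level fell from 5840 and 6034 to 4400 and 4542 (1.33-fold, adjusted p = 0.0146), and at 1416031_s_at from 4264 and 3989 to 3257 and 3141 (1.29-fold, adjusted p = 0.0298). The fourth, 1439269_x_at, overlapped between groups (-0.13, adjusted p = 0.527). Both called probe sets missed the threshold without mutant replicate 1 (0.118 and 0.129), without mutant replicate 2 (0.0833 and 0.190) and with arrays centred on their medians (0.127 and 0.213), and 1416031_s_at also with no filter (0.0588).

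Mcm3 fell at 1 of 5 probe sets, 1426653_at, from 1942 and 1712 to 1152 and 1332 (1.47-fold, adjusted p = 0.0208), a call lost without mutant replicate 1 (0.131). Its other 3 bright probe sets also had no overlap, with differences from -0.33 to -0.23 that did not pass, and the remaining, dim one read 195 and 208 against 219 and 240. Mcm2 differed between its probe sets: 1448777_at read 4250 and 4103 against 3410 and 3480 (-0.28, adjusted p = 0.0657), and 1434079_s_at read 3082 and 3073 against 3130 and 2985 (-0.01, 95% confidence interval -0.20 to 0.18). Mcm2 passed at the first only without wild-type replicate 2 (adjusted p = 0.0481), with up to 0.393 in the other alternatives. Mcm5 and Mcm6 had differences of -0.14 and -0.16 at their brightest probe sets, each without overlap. Mcm4 stood on both sides of 0, at -0.07 and 0.19 in its 2 probe sets.

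Among the loading factors, Orc6, a subunit of the origin recognition complex, had the lowest representative value of the group. It read 1647 and 1784 in wild-type and 1267 and 1378 in mutant kidneys (-0.37 ± 0.10, adjusted p = 0.0548). It missed the threshold and passed in 4 of 15 alternatives, over which the adjusted p ran from 0.0239 to 0.306. Cdc6 (-0.18), which loads the ring with Cdt1, and Cdt1 itself (-0.12) did not pass, nor did Orc1 (-0.03), whose 2 probe sets were dim. Of the factors that activate the ring, Mcm10 read 1091 and 1090 against 861 and 883 (-0.32 ± 0.11, adjusted p = 0.101), Gins1 had -0.21 without overlap, and Cdc45 (-0.15) and Gins2 (0.06) overlapped between groups.

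**Figure D3:**
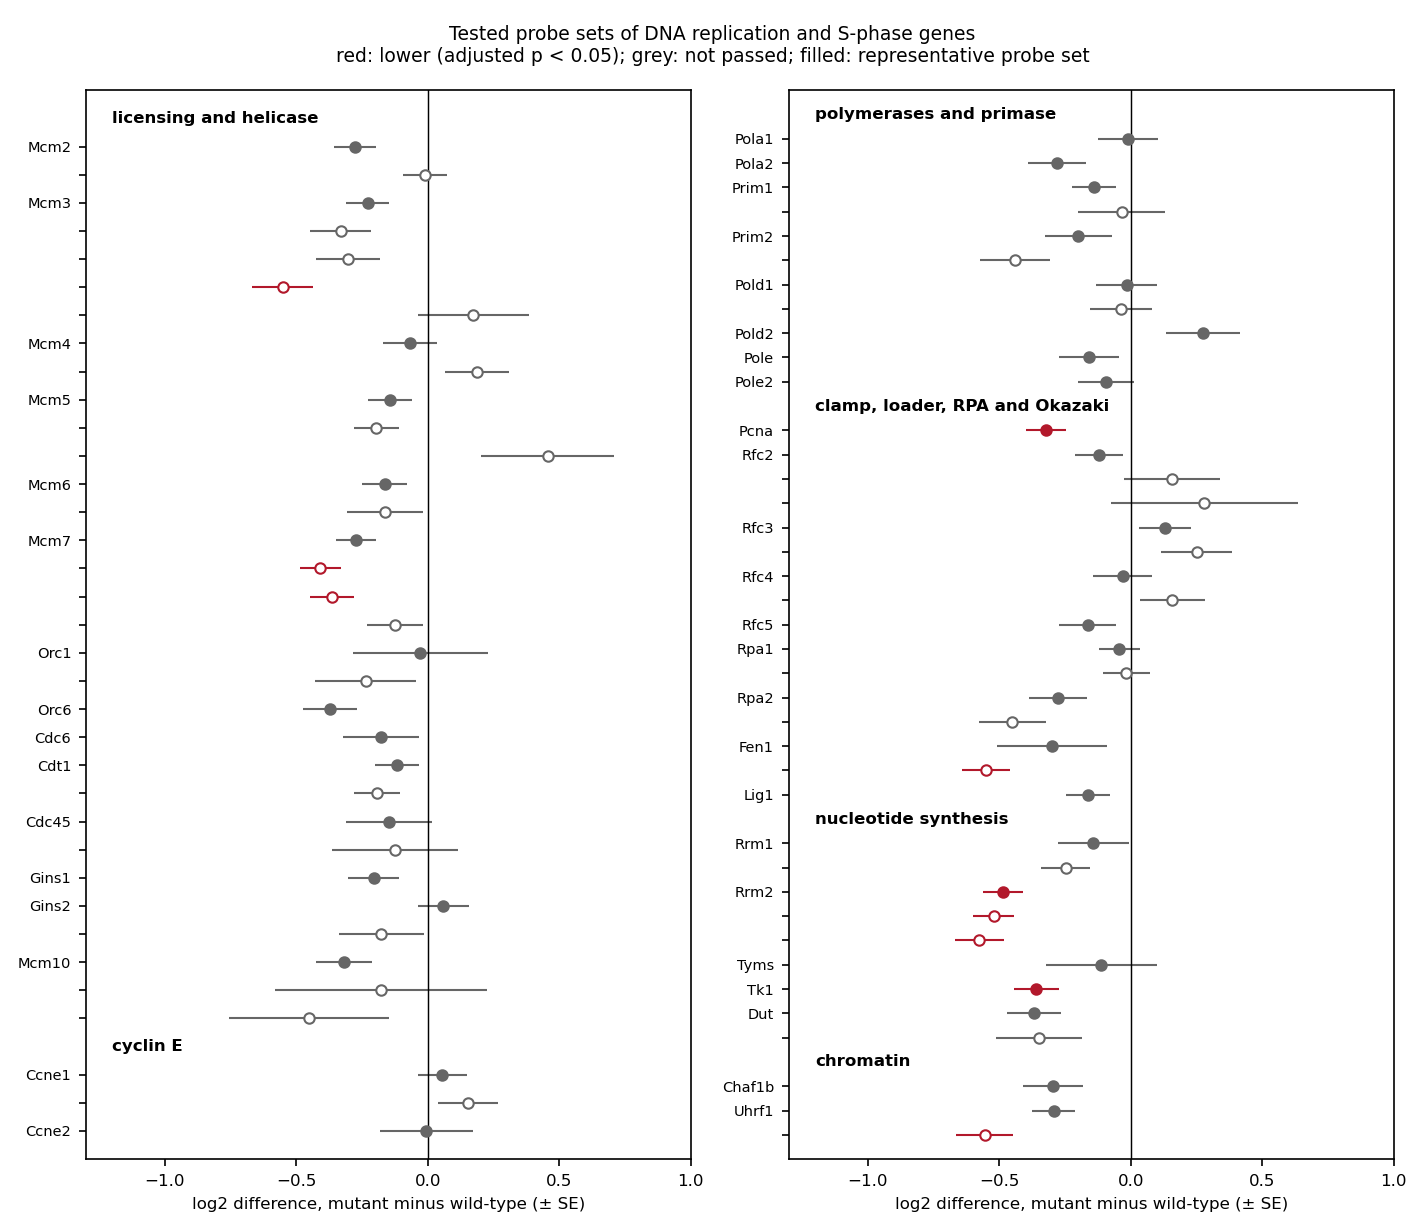
Log2 difference, mutant minus wild-type, with its SE, for the 74 tested probe sets in 6 role groups, with several probe sets of a gene under each other, the representative one filled, and those that passed in red. Points of the licensing and nucleotide groups lie mostly left of 0, those of cyclin E lie at or right of it, and the widest bars belong to dim probe sets such as those of Mcm10 and Rfc2.

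At the clamp, Pcna, the sliding ring that holds the polymerases on DNA, had a single probe set and fell from 13377 and 12981 to 10212 and 10879. The groups did not overlap, and the level was 1.25-fold lower (-0.32 ± 0.08, adjusted p = 0.0351). The Pcna call was lost in 7 of 15 alternatives, the most among the 10 calls. Quantile normalization reduced the difference to -0.16 (adjusted p = 0.150), and the call was also lost without mutant replicate 1 (0.266), without mutant replicate 2 (0.124), with arrays centred on their medians (0.228), with no filter (0.0976) and with the replicate number as a block (0.0961). No subunit of its loader passed. By representative probe set Rfc2 (-0.12), Rfc4 (-0.03) and Rfc5 (-0.16) were negative. Rfc3 read 1234 and 1188 against 1319 and 1335, with both mutant arrays higher (0.13, 95% confidence interval -0.10 to 0.36). The dimmer Rfc4 probe set read 661 and 738 against 788 and 775, also with both mutant arrays higher (0.16). Dimmer probe sets of Rfc2 had 0.28 and 0.16, with overlapping groups. Rpa1 and Rpa2 are subunits of the single-strand binding protein. Rpa1 had -0.04 (95% confidence interval -0.22 to 0.14) with overlapping groups. Rpa2 had no overlap at either probe set, at -0.28 (adjusted p = 0.160) and -0.45 (adjusted p = 0.0590), and their mean passed (0.0415). At the brighter one the adjusted p reached 0.599 in the other alternatives.

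Fen1, the nuclease that trims Okazaki fragments, fell at 1421731_a_at from 2009 and 2011 to 1376 and 1358 (1.47-fold, adjusted p = 0.00790). Arrays of a group were almost equal there. At the probe set of slightly higher mean, 1436454_x_at, the wild-type arrays read 2032 and 2330 and the mutant arrays 1361 and 2289, so mutant replicate 1 was low and mutant replicate 2 lay among the wild-type values (-0.30, adjusted p = 0.431). Without mutant replicate 2 the first call was lost (0.0566) and the second probe set passed (0.0280), while without mutant replicate 1 the second had a difference of 0.07 (0.862). Lig1, the ligase that seals the fragments, read 3153 and 3061 against 2806 and 2747, without overlap (-0.16, adjusted p = 0.270).

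Polymerase and primase genes had 0 of 11 probe sets called lower, against 5.39% of all probe sets, and 0 higher, against 5.41%. At an unadjusted limma p under 0.05, 2 were lower (against 13.4% of all probe sets) and 0 higher. The median over 8 genes was -0.12. Pola2 (-0.28, adjusted p = 0.152), Prim1 (-0.14), Pole (-0.16) and Pole2 (-0.09), subunits of the alpha-primase and epsilon complexes, had no overlap between groups. Prim1 read 2731 and 2740 against 2480 and 2480, a tight difference of small size. Prim2, the large primase subunit, overlapped at its brighter probe set (-0.20) and not at the other, 879 and 754 against 610 and 581 (-0.44, adjusted p = 0.0732). Pola1 and Pold1, catalytic subunits, stood at -0.01 and -0.02, with 95% confidence intervals of -0.27 to 0.25 and -0.29 to 0.25. Pold2, a delta subunit, had the highest difference of all representative probe sets, 0.28 (adjusted p = 0.263). That value came from mutant replicate 1, at 3935, while mutant replicate 2 read 2862 and the wild-type arrays 2754 and 2785.

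Cyclin E, which drives entry into S phase, stood near 0: Ccne1 read 1923 and 1762 in wild-type and 1931 and 1896 in mutant kidneys at its brightest probe set (0.06, 95% confidence interval -0.16 to 0.27), and Ccne2 had -0.01 (-0.41 to 0.40). The groups overlapped at all 3 probe sets, and 0 passed, also at an unadjusted p under 0.05. Of the chromatin factors, Uhrf1, which reads hemimethylated DNA behind the fork, fell at 1415811_at from 2493 and 2261 to 1492 and 1740 (1.47-fold, adjusted p = 0.0161), a call lost without mutant replicate 1 (0.111). At its brighter probe set it read 4325 and 4083 against 3420 and 3435, also without overlap (-0.29, adjusted p = 0.0578). Chaf1b, a subunit of chromatin assembly factor 1, read 1123 and 1089 against 953 and 845 (-0.30, adjusted p = 0.146). Differences between role groups were not tested.

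**Figure D4:**
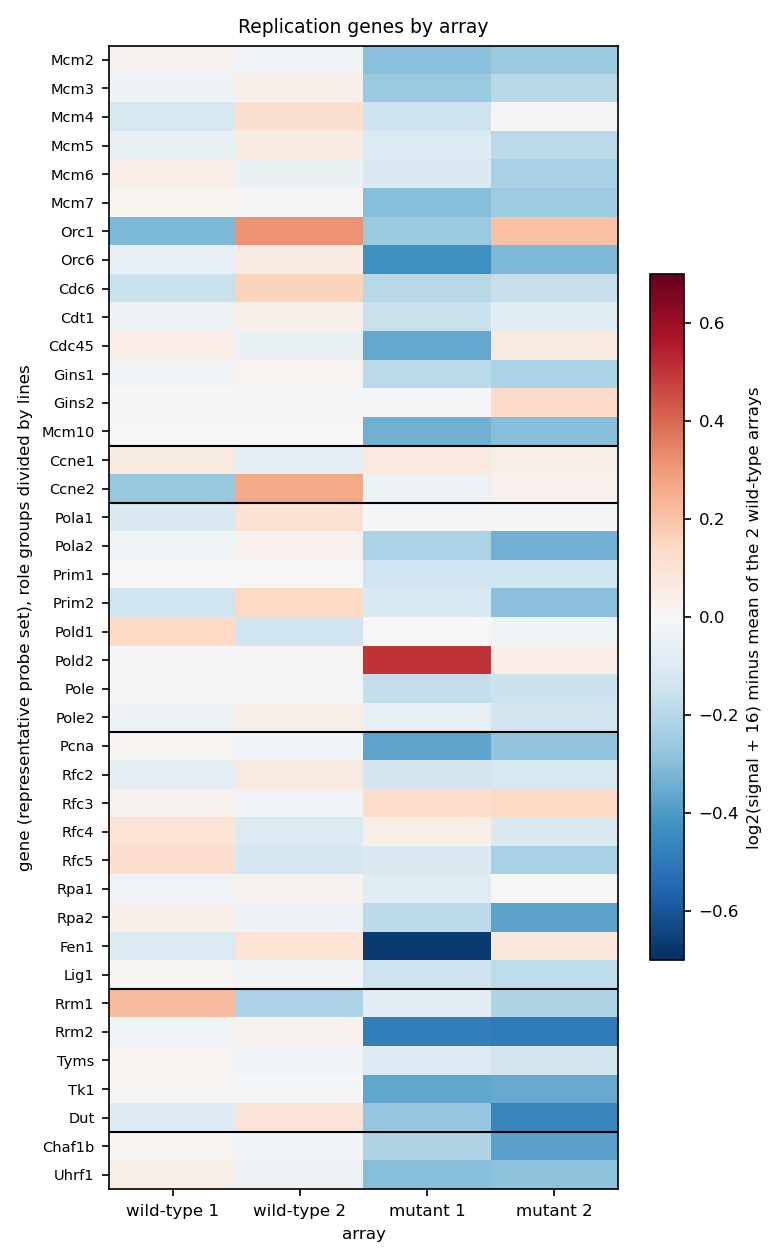
Log2(signal + 16) on each array minus the mean of the 2 wild-type arrays, for the representative probe set of each of the 40 genes, from blue (lower) to red (higher), with lines between role groups. The mutant columns are blue in both arrays for Mcm2, Mcm7, Orc6, Mcm10, Pcna, Rrm2, Tk1 and Uhrf1, and differ between arrays for Fen1, Cdc45 and Pold2.

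Probe sets of 1 gene mostly went the same way. Of the 25 genes with several tested probe sets, 19 had all of them on the same side of 0, and the exceptions were Mcm3, Mcm4, Mcm5, Gins2, Rfc2 and Rfc4. The 7 genes with a call had 11 further tested probe sets beyond 1 per gene, of which 3 were called lower and 8 did not pass. The 3 belonged to Rrm2 and Mcm7. Of all probe sets 5.39% were lower, but these 7 genes were picked because they had a call. The smallest spread among several probe sets was that of Mcm6, -0.16 at both, and the largest that of Mcm3, from -0.55 to 0.17, where the positive value came from a dim probe set. Mcm5 likewise had its positive value, 0.46, at a dim probe set of 142 and 132 against 219 and 172.

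In a further list of 54 replication and S-phase genes, the companion genes, 34 of the 53 tested were negative, with a median of -0.08. The difference from the 40 members was not tested. By representative probe set 3 of 53 were lower (5.66%, against 5.82% of all genes) and 0 higher (against 6.70%). At an unadjusted limma p under 0.05, 10 were lower and 2 higher, against 13.8% and 14.6% of all genes. Ccna2, the S-phase cyclin, fell from 3726 and 3624 to 2811 and 2576 (1.36-fold, adjusted p = 0.0156), and did not pass at its dimmer probe set (-0.20, adjusted p = 0.199). Gmnn, which encodes geminin, the inhibitor of Cdt1, fell from 2412 and 2682 to 1942 and 1884 (1.33-fold, adjusted p = 0.0305). Nasp, a histone chaperone, fell from 4243 and 4537 to 3432 and 3328 (1.30-fold, adjusted p = 0.0259). Usp1, a deubiquitinase that acts on Pcna, fell at both of its dimmer probe sets, 1.35-fold and 1.49-fold (adjusted p = 0.0205 and 0.0189), and not at its brightest, 4322 and 4869 against 4452 and 4186 (-0.09). E2f3 had -0.29 without overlap (adjusted p = 0.0996), E2f7 had -0.17 without overlap, and E2f1 (-0.08), E2f2 (-0.37) and E2f8 (-0.06) overlapped between groups. Without mutant replicate 2 the adjusted p of Ccna2 was 0.135, of Gmnn 0.168, of Nasp 0.169 and of the Usp1 probe sets 0.0901 and 0.108. Without mutant replicate 1 it was 0.122 for Gmnn, 0.120 for Nasp and 0.148 and 0.0740 for Usp1. With arrays centred on their medians 0 of 53 passed by representative probe set, with 4 lower at an unadjusted p under 0.05, against 9.48% of all genes.

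Markers of embryonic kidney were present, and markers of several cell types moved with genotype. All 6 nephron progenitor markers were measured, with a summed signal of 11583 to 11725 in wild-type and 9965 to 10385 in mutant arrays (1 lower, 1 higher). Of the renal vesicle and early nephron markers 9 of 9 tested were lower, Wnt4 among them (1885 and 1770 against 406 and 272 at its brighter probe set), with sums of 18622 to 19597 against 8046 to 8549. Podocyte markers were lower in 3 of 4 (6254 to 6729 against 3049 to 3317) and proximal tubule markers in 5 of 5 (5917 to 6146 against 387 to 463). Stroma markers were higher in 4 of 6 (23599 to 26702 against 37666 to 37881), skeletal muscle markers in 6 of 7 (1276 to 1680 against 7272 to 7370) and erythroid markers in 3 of 5 (9972 to 10175 against 22745 to 23796). Endothelial markers were lower in 2 of 5 (6303 to 6586 against 4895 to 5143), ureteric bud markers in 1 of 7 (11391 to 11843 against 8546 to 8642), and macrophage markers in 0 of 5 (2776 to 3042 against 2828 to 3143). No marker was listed at 0. The transferrin receptor control gave 3' over 5' ratios of 4.71 and 5.10 in wild-type and 5.67 and 6.43 in mutant pools. The Gapdh control gave 0.777 and 0.750 in wild-type and 0.753 and 0.744 in mutant pools. For the actin control the ratios were 1.59 and 1.43 against 1.56 and 1.54, with overlapping groups. The part of cell makeup and of RNA quality in the replication values was not tested.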

How the data were processed

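The authors' deposited signal intensities, linear values for each probe set, were used as given. The submitters' processing notes name GCOS, and neither its version nor how signals were summarised and scaled is stated. The trimmed mean was 500.002 on each array. Values were transformed to log2(signal + 16), the 64 control probe sets and the lowest 40% by mean were left out (lowest mean kept, 94.2), and the 27022 others were fitted with limma 3.58.1 in R 4.3.3 (intensity trend, two-sided, Benjamini-Hochberg, threshold 0.05). The added 16 understates folds of dim genes. Genes came from the platform annotation, updated by identifier through RefSeq (34754 of 34958 matched, 0 symbols changed). Representative probe sets had the highest mean.

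The members and lists were chosen with earlier results of these data known. Named were all members; array values are given for members with a called probe set, the brightest of each role group, the extremes, and others chosen after their values were seen. Of the companion genes, those past the threshold are named, and E2F genes after their values were seen. Alternatives were pseudocounts of 1 and 64, 2 normalizations, 2 filters, 2 other spread models, other probe set rules, the replicate number as a block and leaving out each array. The fit was tested on simulated data. Same-numbered arrays did not deviate together (correlation -0.02).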

Additional observations from a re-analysis of the deposited data

How the results depend on the processing

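Genes are counted by representative probe set. The direction of the member median held in all 15 alternatives, and 0 members were higher in any of them; limma gave 0 to 3 member probe sets higher at an unadjusted p under 0.05. Member genes lower, 3 in the report, numbered 0 with arrays centred on their medians, 1 with no filter, 7 with the lowest 60% left out, 0 without the intensity trend, 6 without _x_at and _s_at probe sets and 7 with the mean over probe sets of a gene. The share of all probe sets lower, 5.39% in the report, also moved with the setting. It was 4.67% with centred arrays, 2.19% with no filter and 7.83% with the lowest 60% left out. Without _x_at and _s_at probe sets it was 5.54%, and with the mean over probe sets of a gene 5.48% of all features were lower. Without the trend 433 of all 27022 probe sets were lower. Member probe sets lower, 10 in the report, numbered 5 with centred arrays and 0 without the trend, and genes with any probe set lower, 7 in the report, numbered 4 and 0. At an unadjusted p under 0.05 the fit without the trend gave 16 member probe sets and 5 member genes lower (against 10.8% of all probe sets and 10.3% of all genes), and the centred arrays 3 genes (against 9.48%). All 10 calls were lost without the trend (adjusted p from 0.0894 to 0.222). Companion genes lower, 3 in the report, numbered 0 with centred arrays, 1 with no filter and 0 without the trend (4, 10 and 5 at an unadjusted p under 0.05, against 9.48%, 11.2% and 10.3% of all genes). Over all probe sets, 433 were lower and 425 higher without the trend, and 934 and 894 with the mean over probe sets of a gene, where fewer features were tested.

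When 1 array was left out, member genes lower ran from 1 to 6, member probe sets lower from 3 to 17, genes with any probe set lower from 2 to 12, companion genes lower from 0 to 4 and higher from 0 to 1, and all probe sets from 871 to 1903 lower and 701 to 2105 higher. In these fits the lone array is assumed to vary like the other group. The lowest member gene counts came without a mutant array and the highest without a wild-type array. The share of all probe sets called lower, given above for each fit, shifted the same way. The ranges therefore cannot be read as specific to replication genes. Negative member genes ran from 31 to 36. With the replicate number as a block, 2 member genes and 10 member probe sets were lower; the numbers do not pair the arrays, and Pcna (adjusted p = 0.0961) was the member call lost. The cause of these shifts was not tested. Dim probe sets limit what can be said of Orc1 and Tyms.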

Other observations

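A few genes around the fork leaned the other way without passing the test. Dna2, a nuclease and helicase that processes Okazaki fragments, read 685 and 762 in wild-type and 964 and 976 in mutant kidneys (log2 difference 0.42, limma adjusted p = 0.0602). Ticrr, which helps to load Cdc45, read 350 and 336 against 469 and 472 (0.44, adjusted p = 0.115). Rnaseh2c, a subunit of the enzyme that removes ribonucleotides from DNA, read 1156 and 1062 against 1529 and 1396 at 1439453_x_at (0.39, adjusted p = 0.0535), while its brightest probe set overlapped between groups (0.17). Rnaseh2a, the catalytic subunit of that enzyme, stood on the other side, at 1354 and 1261 against 1045 and 971 (-0.37, adjusted p = 0.0644). Rnaseh2b, a further subunit, read 1154 and 1107 against 1342 and 1301, with both mutant arrays higher (0.22, limma adjusted p = 0.209). Further probe sets of Dna2 and Ticrr were dim. These genes were chosen after their values were seen.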
